A study of Mus musculus with 61 samples.

Results

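Collagens are the proteins that give the extracellular matrix its fibres and sheets, and their messenger RNAs were followed here in the developing mouse brain and liver. The genes were chosen by name: a protein-coding identifier of the expression table whose GENCODE symbol is Col, a number, the letter a and a number. This gave 44 of the 43346 identifiers in the table. By the kind of matrix they build, 7 were placed with the fibrillar collagens, 9 with the collagens of basement membranes, 8 with those of cartilage and 20 with the remaining types. Fibril-forming chains of cartilage, such as Col2a1, Col11a1 and Col27a1, were counted in the cartilage group and not in the fibrillar group. Transcript levels are in TPM, a share of all transcripts in a library that is scaled by transcript length, so that levels can also be set side by side between genes. Of the 44 genes, 42 reached 1 TPM in at least 2 libraries and were tested, among 18655 genes in all. The other 2, Col4a3 and Col4a4, did not reach 1 TPM in any library and were at most 0.65 and 0.63 TPM.

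A collagen molecule is a helical bundle of chains that are hydroxylated and folded in the endoplasmic reticulum, secreted, trimmed and cross-linked. Fibrillar types form the tension-bearing fibres of loose connective tissue, skin, tendon and the meninges, while type IV chains form the sheet beneath epithelia and around blood vessels. In the brain, collagens are known mainly from the meninges, the vessel wall and the pial basement membrane, and a few types are made by neurons or by early neuroepithelium. In the liver they are known from the portal tracts, the capsule and the perisinusoidal space.

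The libraries are bulk RNA sequencing of whole forebrain, midbrain, hindbrain and liver from mice. Brain tissue was taken at embryonic day (E) 10.5, E11.5, E12.5, E13.5, E14.5, E15.5, E16.5 and on the day of birth (P0), and liver at the same stages from E11.5. There are 15 forebrain, 16 midbrain, 16 hindbrain and 14 liver libraries in 31 tissue and stage groups, 30 of which hold 2 libraries; forebrain at E10.5 has 1. The labels name no strain, genotype, sex or treatment, and describe the libraries of a group as replicates without saying whether they came from separate animals or pools. Because tissue was analysed whole, fewer cells of a type and less RNA per cell cannot be told apart in any of the differences given here.

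Some libraries stand apart from their labels or their neighbours. Hoxb3, a gene of the hindbrain and spinal cord, was at 78.04 to 87.63 TPM in the libraries labelled midbrain E15.5, against 0.01 to 2.08 TPM in the other midbrain libraries. In those labelled hindbrain E15.5 it was at 0.15 to 0.24 TPM, against 22.3 to 146.61 TPM in the other hindbrain libraries. The labels were kept, and results between brain regions are also given without these 4 libraries. The hepatocyte transcripts Alb and Afp were at 3.64 to 112.36 and 4.62 to 206.66 TPM in brain at E12.5. In the other brain libraries they had medians of 0.81 and 1.23 TPM and highest values of 28.35 and 7.19 TPM, so the ranges overlapped. Hindbrain at E14.5 and E16.5 held unequal amounts of cartilage and muscle markers: 7 cartilage markers summed to 26.7 TPM in replicate 1 of hindbrain E16.5 and 3.84 TPM in the other library of that group, and 6 muscle markers summed to 175 and 9.16 TPM. The libraries also fall into 2 classes by a ribosomal pseudogene, Rps15a-ps6, at 1.55 TPM or more in 37 libraries (class A) and at 0.89 TPM or less in 24 (class B). Class goes with stage: the libraries of E10.5, E12.5 and E15.5 in every tissue are class B, as are both midbrain libraries of P0, and the rest are class A except hindbrain P0, the only group with 1 library of each. Between 12104 and 15561 genes were at 1 TPM or more in each library.

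Summed over all 44 genes, collagen transcripts were most abundant in the brain at E12.5 and in the liver at E11.5. The sum in hindbrain was 1454 ± 108 TPM at E11.5, 2494 ± 349 TPM at E12.5, 991 ± 74.5 TPM at E13.5 and 654 ± 145 TPM at P0 (SD, n = 2 each). In forebrain it was 1066 ± 76.8 TPM at E11.5, 1272 ± 100 TPM at E12.5, 428 ± 33.2 TPM at E13.5 and 519.7 ± 3.17 TPM at P0 (SD, n = 2 each). Midbrain held 1335 ± 31.6 TPM at E11.5, 1835 ± 317 TPM at E12.5, 597 ± 61.3 TPM at E13.5 and 524 ± 12.03 TPM at P0 (SD, n = 2 each). The step down between E12.5 and E13.5 was larger than the spread between libraries in each of the 3 brain regions, but E12.5 is class B and E13.5 class A, so stage and class cannot be told apart in that step. Between E13.5 and E11.5, both class A, the sums did not overlap in any of the 3 regions and were lower at E13.5. Liver started at 762 ± 15.3 TPM at E11.5, was at 278 ± 49.6 TPM at E13.5 and at 503 ± 22.1 TPM at P0 (SD, n = 2 each). Its P0 sum had a different make-up: the 3 most abundant collagens made up 63.1% of it, against 55.6% at E11.5, and Col18a1 alone was at 237 TPM.

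Each tissue was first compared at the ends of the shared course, P0 against E11.5, with a linear model fitted to log2(TPM + 1) of all tested genes in limma; a gene was called when its Benjamini-Hochberg adjusted p was below 0.05 and its log2 fold change at least 1 in size. In forebrain 6 collagens were higher at P0, 11 were lower, 25 were not called and 2 were not tested, where 30.9% of all tested genes were called, 19.2% higher and 11.8% lower. In midbrain 5 were higher, 15 lower and 22 not called, where 33.4% of all genes were called, 18.3% higher and 15.1% lower; here P0 is class B and E11.5 class A, so time and class cannot be told apart. With class as a term, which rests on the hindbrain P0 pair alone, 6 were higher and 16 lower in midbrain. The class B library of that pair has a record title that gives E16.5, so class and stage label cannot be told apart in that term. The shares of all tested genes called with it are not given here. In hindbrain 2 collagens were higher, 12 lower and 28 not called, where 28.0% of all genes were called, 16.2% higher and 11.8% lower. The hindbrain P0 pair holds 1 library of each class, and E11.5 is class A. The median log2 fold change of the 42 tested collagens was -0.21 in forebrain, -0.39 in midbrain and -0.39 in hindbrain, and over all tested genes it was 0.02, -0.01 and -0.02 in the same order. In liver 3 collagens were higher, 18 lower and 21 not called, where 46.3% of all genes were called, 8.14% higher and 38.2% lower. The liver medians were -0.88 over the collagens and -0.69 over all genes. The 7 hepatocyte genes of a marker list summed to 153815 TPM in P0 liver, against 13949 TPM at E11.5, and their part in the all-gene shift was not tested. The shift depends on scaling. With median-of-ratios scaling the all-gene median in liver was -0.01 and the collagen split was 6 higher and 12 lower. With quantile normalization the median was -0.18 and the split was 4 and 12. Both scalings draw the all-gene median toward 0 by construction, here and in the comparisons below. A median near 0 under them is therefore not a result.

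**Figure D1:**
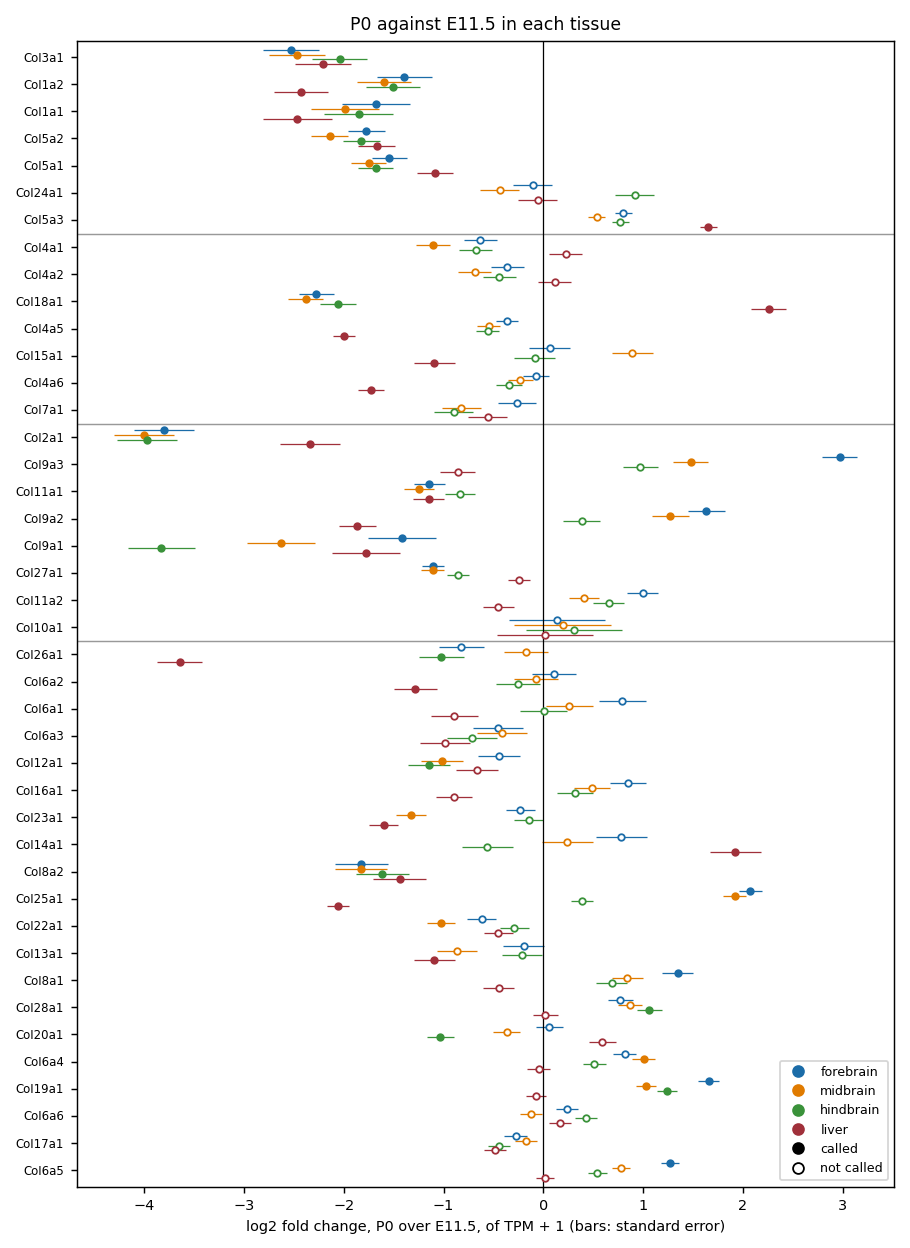
Log2 fold change of TPM + 1, P0 over E11.5 (horizontal axis), of the 42 tested collagens (rows, by matrix type) in forebrain, midbrain, hindbrain and liver (colours). Bars are standard errors from the limma fit, filled points were called and open points were not; Col18a1 lies to the left of 0 in the 3 brain regions, between -2.38 and -2.06, and to the right in liver, at 2.26.

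Across stages, 31 of the 42 tested collagens differed in forebrain, 33 in midbrain, 32 in hindbrain and 30 in liver, by an F test over the stages with an adjusted p below 0.05 and stage means spread over at least 1 log2 unit. Among all tested genes 51.9%, 53.7%, 50.8% and 63.6% met that rule in the same tissues. The highest stage mean fell at E12.5 for 23 of 42 collagens in hindbrain, 20 in midbrain and 13 in forebrain, and at E11.5 for 29 of 42 in liver. Of the 18655 tested genes 2427 in hindbrain, 2592 in midbrain and 2945 in forebrain were highest at E12.5, and 12642 in liver at E11.5. Since every E12.5 library is class B and the E11.5 and E13.5 libraries are class A, these peaks cannot be told apart from class. Class A libraries alone lack E12.5 and E15.5 in every tissue, E10.5 in brain and P0 in midbrain. Over the stages left, the F test called 24 collagens in forebrain, 22 in midbrain and 30 in liver. No count is given for hindbrain, where class A holds 1 library of P0. The shares of all tested genes called in class A alone are not given here, and those above are over all stages.

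The fibrillar collagens had the highest summed level of the 4 groups at E11.5 in every tissue, with means of 492 to 680 TPM. In the forebrain library of E10.5 they summed to 272 TPM and the basement membrane collagens to 285 TPM. Of the 7 fibrillar genes 5 were lower at P0 in every tissue, where 11.8% to 38.2% of all tested genes were lower. The 5 were Col3a1, the chain of type III collagen of vessels and meninges, and 2 pairs of chains. Col1a1 and Col1a2 together make type I collagen, and Col5a1 and Col5a2 are chains of the type V collagen that seeds type I fibrils. Col3a1 (ENSMUSG00000026043.14, chromosome 1, 45311538 to 45349706 of mm10, plus strand) had the highest mean of all 44 over the 61 libraries, 140.2 TPM, and ranged from 36.8 to 474 TPM. It lies tail to tail with Col5a2, 24614 bases away.

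The upstream sequences of Col3a1 and Col5a1 are shown because both genes fell while their starts differ in base composition. Each is the 250 bases before the start in RefSeq on GRCm38.p6, the reference for mm10, on the gene's strand. Capitals mark a TATAAA match in Col3a1 (chr1:45311288-45311537, plus strand) and the GC box GGGCGG, read on either strand, in Col5a1 (chr2:27886175-27886424, plus strand).
Col3a1: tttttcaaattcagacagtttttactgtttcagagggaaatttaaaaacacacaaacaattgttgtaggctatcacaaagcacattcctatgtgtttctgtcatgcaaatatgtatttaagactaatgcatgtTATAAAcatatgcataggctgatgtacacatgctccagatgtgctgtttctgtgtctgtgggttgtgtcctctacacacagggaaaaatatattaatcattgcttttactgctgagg
Col5a1: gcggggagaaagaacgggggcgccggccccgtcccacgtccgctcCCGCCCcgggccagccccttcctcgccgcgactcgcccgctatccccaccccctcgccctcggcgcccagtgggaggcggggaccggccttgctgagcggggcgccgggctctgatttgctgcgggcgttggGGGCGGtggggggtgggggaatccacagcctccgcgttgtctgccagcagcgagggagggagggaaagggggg
The Col3a1 window is 35.2% G or C and holds 1 TATAAA, 117 bases before the start. The Col5a1 window is 76.4% G or C and holds 2 GC boxes, the nearer 73 bases before the start. Both strands of the windows of all genes were searched for these 2 motifs and for the CCAAT box. The TATA box was in 12.4% of 32851 windows and in 5 of the 38 windows of the 35 collagens that have one. The CCAAT box was in 33.8% of all windows and in 13 of 38, and the GC box in 32.7% of all windows and in 22 of 38. No motif contains another. Collagen windows had a median G and C content of 59.0%, against 52.4% over all windows. A match describes the letters and is not a measured binding site.

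In forebrain Col3a1 was at 37.5 and 42.3 TPM at P0, against 228 and 242 TPM at E11.5. In midbrain it was at 60.2 and 56.5 TPM at P0, against 320 and 335 TPM at E11.5. Hindbrain had 37.9 TPM in replicate 1 and 92.0 TPM in the unnumbered library of P0, against 230 and 263 TPM at E11.5. The P0 libraries lay below the E11.5 libraries in each region, although the P0 hindbrain pair differed more than any other of these pairs. In that pair replicate 1 is class A, and the unnumbered library, whose record title gives E16.5, is class B. The gap within it cannot be told apart from class or stage label. Liver had 36.8 and 46.3 TPM at P0, against 209 and 181 TPM at E11.5. The log2 fold changes were -2.53 ± 0.277 in forebrain (SE, adjusted p = 4.41e-10), -2.47 in midbrain (7.3e-10), -2.04 in hindbrain (4.94e-08) and -2.21 in liver (6.25e-09).

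Type I collagen followed the same course. Col1a2 fell to 41.2 and 46.5 TPM in P0 forebrain, against 111 and 122 TPM at E11.5, a log2 fold change of -1.39 ± 0.272 (SE, adjusted p = 2.55e-05). In liver it fell to 21.7 and 24.3 TPM at P0, against 127 and 129 TPM at E11.5 (-2.43 ± 0.272, adjusted p = 5.2e-10). The groups did not overlap in either tissue. Col1a1 was at 18.6 and 40.9 TPM in P0 hindbrain, against 102 and 103 TPM at E11.5 (-1.85 ± 0.344, adjusted p = 1.23e-05), and at 16.02 and 18.7 TPM in P0 liver, against 95.1 and 106 TPM at E11.5 (-2.47 ± 0.344, adjusted p = 5.71e-08). Both type I chains were also lower at P0 in the remaining tissues, with log2 fold changes from -1.99 to -1.505. Between these end points both had their highest stage mean at E12.5 in each brain region. Col1a1 was at 321 and 226 TPM in hindbrain at E12.5 and at 86.3 and 70.7 TPM at E13.5, and in forebrain at 172 and 142 TPM at E12.5 and at 23.4 and 17.02 TPM at E13.5. The ratio of Col1a1 to Col1a2 had medians of 0.611 in forebrain, 0.544 in midbrain and 0.547 in hindbrain libraries and 0.928 in liver libraries, and its range in liver, 0.737 to 1.07, overlapped those of the brain regions.

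Col5a2 fell by 1.77, 2.14, 1.82 and 1.67 on the log2 scale in forebrain, midbrain, hindbrain and liver, and Col5a1 by 1.54, 1.75, 1.68 and 1.09. In liver neither of these calls held under another scaling: with median-of-ratios scaling the changes were -0.56 for Col5a2 and 0.04 for Col5a1, and with quantile normalization -0.80 and -0.26. The liver call of Col5a1 was also lost without replicate 2 of liver P0, where the change was -0.95. Col3a1, Col1a1 and Col1a2 stayed lower in liver under both scalings, between -1.05 and -1.49. The other 2 fibrillar genes were low. Col5a3, the third type V chain, was higher in P0 liver, at a mean of 2.43 TPM against 0.09 TPM at E11.5 (1.65 ± 0.085, adjusted p = 8.5e-19), and had values of 0.80, 0.54 and 0.77 in forebrain, midbrain and hindbrain that did not reach the threshold. Col24a1 had -0.11, -0.44, 0.92 and -0.06 in the 4 tissues and was not called.

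**Figure D2:**
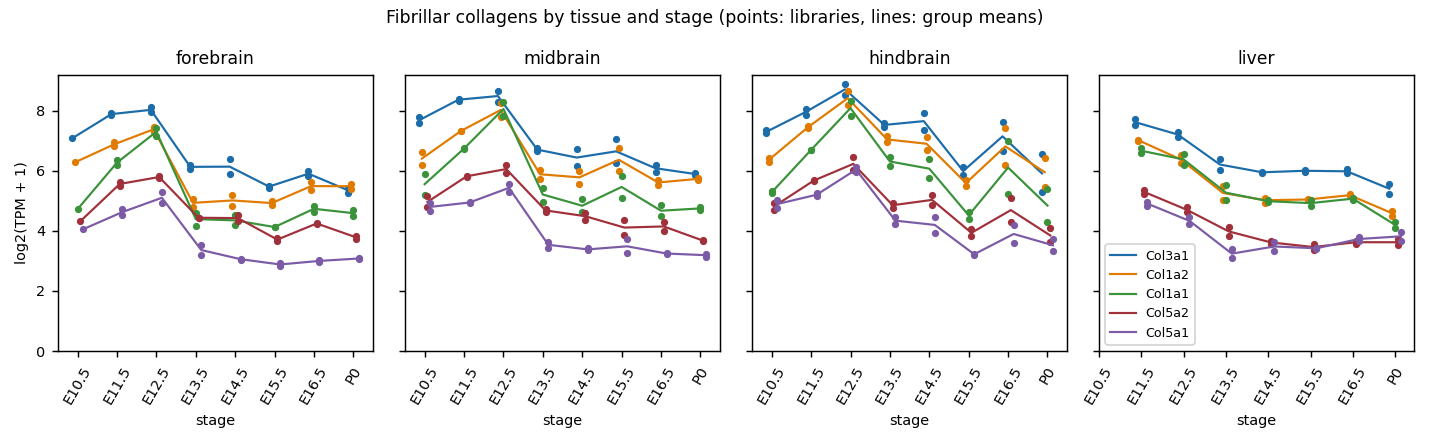
Log2(TPM + 1) of the 5 abundant fibrillar collagens (colours) by stage in forebrain, midbrain, hindbrain and liver (panels). Points are libraries and lines join group means; the brain panels peak at E12.5, a stage with class B libraries only, where Col3a1 reached 474 and 365 TPM in hindbrain, and drop at E13.5, while liver declines from E11.5.

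Markers of fibroblasts and meninges moved over the same stages, and not all in one direction. Of 10 such genes, 3 were higher and 4 lower at P0 in forebrain, 2 and 4 in midbrain, 1 and 5 in hindbrain, and 1 and 7 in liver. Among all tested genes 11.8%, 15.1%, 11.8% and 38.2% were lower in the same tissues, and 19.2%, 18.3%, 16.2% and 8.14% higher. Counts of the marker lists that follow for P0 against E11.5 are also to be read against these shares. Lum, a fibril-binding proteoglycan, fell to 8.25 TPM in P0 forebrain, against 78.6 TPM at E11.5, and Twist1, a factor of embryonic mesenchyme, fell to 0.975 TPM against 26.2 TPM. Ptgds, a prostaglandin synthase made by the leptomeninges, was at 534 TPM in P0 forebrain against 0.395 TPM at E11.5, and none of the 10 genes was listed at 0 there. Their sum therefore ran from 570 to 719 TPM in P0 forebrain, against 172 to 208 TPM at E11.5, opposite to the fibrillar collagens. In liver the sum was 163 to 189 TPM at P0, against 138 to 158 TPM at E11.5, although 7 of the 10 genes fell; the gene that rose was Dcn, a proteoglycan, at 149 TPM against 27.8 TPM. The 8 markers of hepatic stellate cells and mesothelium summed to 72.2 to 74.2 TPM in P0 liver, against 173 to 191 TPM at E11.5, with 2 genes higher and 6 lower, and the 8 of pericytes and smooth muscle to 88.02 to 106 TPM against 132 to 134 TPM, with 0 higher and 2 lower. These liver counts moved with scaling: 2 stellate and mesothelial genes were higher and 2 lower with median-of-ratios scaling, and 4 pericyte and smooth muscle genes were higher and 2 lower. The shares of all tested genes given above are those without that scaling. The part of these cells in the fibrillar results was not tested.

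Of the 7 tested basement membrane collagens, 2 in forebrain, 4 in midbrain, 2 in hindbrain and 6 in liver differed over the stages by the F test. Over all tested genes that test called 51.9%, 53.7%, 50.8% and 63.6% in the same tissues. Between P0 and E11.5, 1 was lower in forebrain, 2 in midbrain and 1 in hindbrain, and in liver 1 was higher and 3 were lower. In the same order 11.8%, 15.1% and 11.8% of all tested genes were lower in brain, and in liver 8.14% were higher and 38.2% lower. Col18a1 moved in opposite directions in brain and liver. Col18a1 carries the fragment endostatin at its end and lies in vascular and epithelial basement membranes. It fell to 12.3 and 11.03 TPM in P0 forebrain, against 58.7 and 61.7 TPM at E11.5 (log2 fold change -2.28 ± 0.176 SE, adjusted p = 8.79e-14). Midbrain had 11.4 and 10.8 TPM at P0, against 61.2 and 62.9 TPM at E11.5 (-2.38, adjusted p = 2.46e-14), and hindbrain 12.04 and 20.1 TPM against 64.1 and 72.2 TPM (-2.06, adjusted p = 1.39e-12). In liver it rose to 252 and 222 TPM at P0, against 43.9 and 53.9 TPM at E11.5 (2.26 ± 0.176, adjusted p = 6.53e-14). None of these pairs of groups overlapped. The liver course was not monotonic: libraries were at 34.6 and 37.4 TPM at E12.5, 20.6 and 20.4 TPM at E13.5, 37.9 and 46.8 TPM at E14.5, 56.3 and 51.04 TPM at E15.5, and 99.96 and 89.9 TPM at E16.5. The liver rise was larger under both other scalings, 3.44 and 2.50. The summed hepatocyte markers given above were higher over the same interval in liver, with 6 of the 7 genes called higher; their part in the Col18a1 result was not tested.

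Col4a1 and Col4a2, the chains of the common type IV network, were on average the most abundant basement membrane collagens in brain. Their genes lie head to head on chromosome 8 with annotated starts that overlap by 22 bases. Col4a1 fell to 52.4 and 58.3 TPM in P0 midbrain, against 117 and 124 TPM at E11.5 (-1.11 ± 0.168 SE, adjusted p = 3.73e-07), but this call was lost with median-of-ratios scaling (-0.95) and when the 4 mismatched columns took the stage of their titles. In forebrain and hindbrain its log2 fold changes were -0.63 and -0.68 and were not called, and Col4a2 had -0.36, -0.69 and -0.44 in the 3 regions. In liver neither was called between the end points, yet both passed through a low at E13.5: Col4a1 was at 11.3 and 10.1 TPM at E13.5, and at 43.1 and 34.6 TPM at P0, against 29.7 and 36.6 TPM at E11.5. Col4a2 was at 6.13 and 5.25 TPM at E13.5, and at 22.5 and 16.95 TPM at P0, against 16.1 and 20.2 TPM at E11.5. Markers of endothelium had the same low: 9 genes summed to a mean of 157 TPM at E11.5, 53.9 TPM at E13.5 and 111 TPM at P0 in liver, and to 141 TPM at P0, against 149 TPM at E11.5, in forebrain; their part was not tested. Over the 61 libraries the ratio of Col4a1 to Col4a2 stayed within 1.15 to 2.04, with brain libraries at 1.15 to 1.68 and liver libraries at 1.82 to 2.04, so the tissues did not overlap.

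Col4a5 and Col4a6, a second pair of type IV chains, lie head to head on chromosome X with 1308 bases between them, and both fell in liver. The upstream window of Col4a6 is shown because it lies in the interval that the pair shares. It is the RefSeq sequence of chrX:141474077-141474326, minus strand, on GRCm38.p6, and the capitals mark a GC box.
Col4a6: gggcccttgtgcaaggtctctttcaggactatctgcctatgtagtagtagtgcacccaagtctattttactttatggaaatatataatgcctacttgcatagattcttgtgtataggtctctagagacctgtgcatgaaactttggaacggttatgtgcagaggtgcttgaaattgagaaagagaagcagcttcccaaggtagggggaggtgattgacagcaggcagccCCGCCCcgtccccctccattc
The window is 47.6% G or C and its GC box, read here as CCGCCC, begins 21 bases before the start. Col4a5 fell to a mean of 1.195 TPM in P0 liver against 7.79 TPM at E11.5 (-2 ± 0.113 SE, adjusted p = 1.1e-17), and Col4a6 to 0.135 TPM against 2.75 TPM (-1.72 ± 0.13, adjusted p = 2.86e-14). In the brain regions neither was called, with log2 fold changes between -0.07 and -0.56. The ratio of Col4a5 to Col4a6 was 2.58 to 5.02 in brain libraries, and had a median of 3.52 in liver libraries. It was widest in liver, from 2.68 at E11.5 up to the P0 libraries, which held 1.25 TPM of Col4a5 over 0.10 TPM of Col4a6 and 1.14 TPM over 0.17 TPM. Col15a1, a relative of Col18a1, was lower in P0 liver, at 1.11 TPM against 3.41 TPM (-1.09), a call lost under both other scalings, without replicate 1 of liver P0 (-0.76) and without replicate 2 of liver E11.5 (-0.95); it was not called in brain, at 0.07, 0.89 and -0.09. Col7a1, which anchors epithelia to the matrix beneath, was not called in any tissue, at -0.27, -0.82, -0.90 and -0.56.

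**Figure D3:**
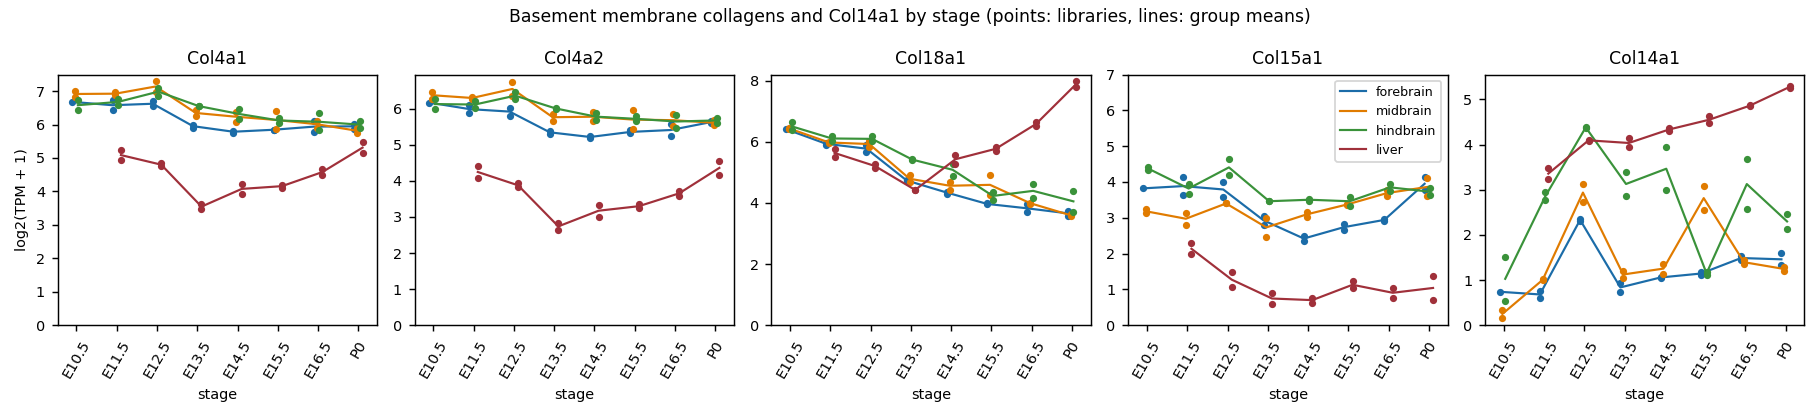
Log2(TPM + 1) of Col4a1, Col4a2, Col18a1, Col15a1 and Col14a1 (panels) by stage, coloured by tissue. Points are libraries and lines join group means; Col18a1 ends at 252 and 222 TPM in liver and at or below 20.1 TPM in the brain regions, and Col14a1 climbs in liver to 38.3 and 37.4 TPM at P0.

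Among the collagens named for cartilage, Col2a1 fell in every tissue and the chains of type IX collagen parted from each other. Col2a1 makes the type II fibrils of cartilage and is also known from notochord and early neuroepithelium. In forebrain it fell to 9.51 and 5.28 TPM at P0, against 108 and 117 TPM at E11.5 (log2 fold change -3.80 ± 0.301 SE, adjusted p = 1.56e-13). Midbrain had 6.41 and 7.12 TPM at P0, against 116 and 131 TPM at E11.5 (-4.005), hindbrain 9.65 and 9.56 TPM against 153 and 178 TPM (-3.97), and liver 0.04 and 0.11 TPM against 4.00 and 4.91 TPM (-2.34). No P0 library reached an E11.5 library of its tissue.

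Type IX collagen decorates type II fibrils and is built of the products of Col9a1, Col9a2 and Col9a3. Col9a3 rose to 50.2 and 49.1 TPM in P0 forebrain, against 5.57 and 5.36 TPM at E11.5 (2.97 ± 0.175 SE, adjusted p = 5.3e-17), and Col9a2 to 26.7 and 14.9 TPM against 6.26 and 5.30 TPM (1.63, adjusted p = 7.05e-10). Over the same interval Col9a1 fell to 2.57 and 2.74 TPM in P0 forebrain, against 8.34 and 9.17 TPM (-1.42 ± 0.338, adjusted p = 0.000339). Its low point there came earlier, at 0.73 and 0.51 TPM at E13.5. In midbrain Col9a3 and Col9a2 rose by log2 fold changes of 1.48 and 1.27 while Col9a1 fell by 2.63. In hindbrain Col9a1 fell to 1.97 and 2.16 TPM at P0, against 38.6 and 46.9 TPM at E11.5 (-3.83 ± 0.338, adjusted p = 2.88e-12). Col9a3 had 45.96 and 45.9 TPM at P0 there, against 22.9 and 23.04 TPM at E11.5, and at 0.97 it stayed just under the threshold; Col9a2 had 0.38 and was not called. The ratio of Col9a1 to Col9a3 ran from 0.036 to 11.9 in forebrain libraries, from 0.046 to 18.04 in midbrain and from 0.034 to 8.40 in hindbrain. In liver Col9a1 fell by 1.78 and Col9a2 by 1.86, and Col9a3 had -0.86 and was not called. Col9a1 was at 0.02 TPM in 1 P0 library and listed at 0 in the other.

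**Figure D4:**
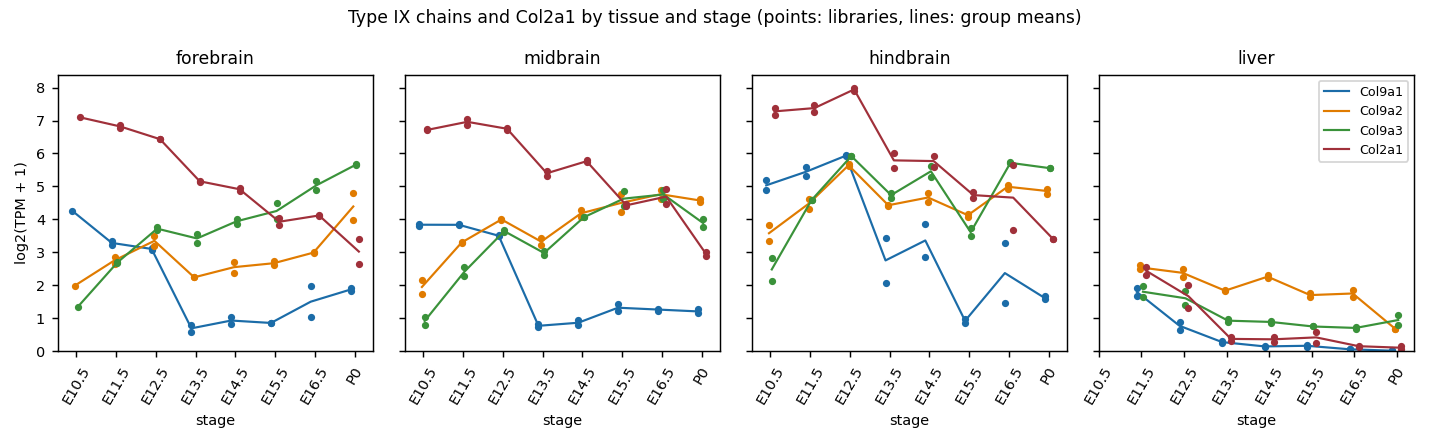
Log2(TPM + 1) of Col9a1, Col9a2, Col9a3 and Col2a1 (colours) by stage in 4 tissue panels. Points are libraries and lines join group means; in forebrain Col9a3 climbs to 50.2 and 49.1 TPM at P0 while Col2a1 and Col9a1 end at or below 9.51 TPM.

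Col11a1, a chain of the fibril core beside type II collagen, fell in forebrain (-1.14), midbrain (-1.25) and liver (-1.15) and was not called in hindbrain (-0.84). Its forebrain call was lost without replicate 2 of E11.5, at -0.97, its midbrain call with library class as a term, and its liver call under both other scalings. Col27a1, another fibril-forming chain of cartilage, fell by 1.11 in forebrain and by 1.11 in midbrain, the second call lost with median-of-ratios scaling (-0.95), and was not called in hindbrain or liver. Col11a2 was not called in any tissue, with log2 fold changes of 0.99, 0.41, 0.65 and -0.45. Col10a1, the collagen of hypertrophic cartilage, was at 15.6 TPM in replicate 1 of hindbrain E16.5 and at 0.18 TPM in the other library of that group; it was at 1.01 TPM in 1 library of hindbrain E14.5 and at most 0.33 TPM in the other libraries. The same E16.5 library had 48.9 TPM of Col2a1 and 8.64 TPM of Col9a1, against 11.8 and 1.77 TPM in the other library of its group.

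Markers of chondrocytes, a list of 7 genes without collagens, summed to 4.95 to 8.04 TPM in P0 forebrain, against 17.5 to 20.9 TPM at E11.5. In midbrain the sums were 6.17 to 6.20 TPM at P0, against 19.8 to 20.6 TPM at E11.5, and in hindbrain 5.99 to 6.42 TPM against 31.2 to 32.2 TPM. In liver they were 2.98 to 4.51 TPM at P0, against 3.65 to 3.80 TPM at E11.5. Of the 7 genes, 0 were higher and 1 lower in forebrain, 0 and 1 in midbrain, 0 and 2 in hindbrain, and 1 and 1 in liver, so the sums rest on few genes. The one lower in every tissue was Hapln1, a link protein of the matrix, at 1.27 TPM in P0 forebrain against 15.9 TPM at E11.5 (-2.92), and Cnmd, chondromodulin, was the second in hindbrain, at 1.11 against 17.5 TPM (-3.14). The sum in hindbrain was highest at E12.5, 77.4 to 83.2 TPM, the stage at which Col2a1 was at 236 and 254 TPM. Of the defining markers, Acan was at 0.635 TPM and Matn1 at 0.095 TPM in P0 forebrain, against 0.035 and 0.015 TPM at E11.5, and Snorc was listed at 0 in both E11.5 liver libraries. The part of cartilage in the Col2a1 and Col9a1 results was not tested.

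The remaining 20 collagens moved gene by gene. Col25a1, a transmembrane collagen made by neurons, rose to 11.3 and 9.54 TPM in P0 forebrain, against 1.57 and 1.85 TPM at E11.5 (2.07 ± 0.114 SE, adjusted p = 7.84e-18). It rose to 15.8 and 16.8 TPM in P0 midbrain, against 3.34 and 3.83 TPM (1.92, adjusted p = 6.31e-17), and was not called in hindbrain, at 10.5 and 8.68 TPM against 6.07 and 8.20 TPM (0.39). In liver it fell to 0.68 and 0.86 TPM at P0, against 6.29 and 6.44 TPM (-2.06, adjusted p = 5.67e-18). Col19a1, a fibril-associated collagen, was low throughout and rose in all 3 brain regions, to 2.23 and 2.71 TPM in P0 forebrain against 0.09 and 0.11 TPM at E11.5 (1.65 ± 0.101, adjusted p = 1.31e-16). Its hindbrain value was 1.24, a call lost with quantile normalization, and its midbrain value 1.02, a call lost under both other scalings and without replicate 1 of midbrain E11.5, at 0.997.

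Col26a1, a collagen with an EMI domain, had the highest mean of this group and fell in liver, to 0.10 and 0.04 TPM at P0 against 12.78 and 12 TPM at E11.5 (-3.65 ± 0.223 SE, adjusted p = 8.55e-17). In forebrain it was at 33.1 and 23.9 TPM at P0, against 50.1 and 51.03 TPM at E11.5, and was not called there (-0.82) or in midbrain (-0.18). Its hindbrain call (-1.02) was lost without replicate 1 of P0 (-0.72), without replicate 2 of E11.5 (-0.90) and with median-of-ratios scaling. Col8a2, a short-chain collagen of corneal and vascular matrix, fell in every tissue, to 3.81 and 5.83 TPM in P0 forebrain against 19.7 and 18.9 TPM at E11.5 (-1.82 ± 0.264, adjusted p = 1.54e-07), with -1.83 in midbrain, -1.62 in hindbrain and -1.44 in liver. Its partner Col8a1 rose in forebrain, at a mean of 3.96 TPM against 0.95 TPM (1.34), a call lost with quantile normalization, and had 0.84, 0.68 and -0.45 in midbrain, hindbrain and liver.

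Col14a1, a fibril-associated collagen of loose connective tissue, rose in liver to 38.3 and 37.4 TPM at P0, against 8.41 and 10.2 TPM at E11.5 (1.92 ± 0.256 SE, adjusted p = 2.35e-08), with every stage between at 14.3 TPM or more. It was not called in the brain regions, at 0.78, 0.24 and -0.56. Dcn, from the fibroblast list, also rose in liver (2.39). Type VI collagen forms beaded microfibrils around many cells. In forebrain, midbrain and hindbrain Col6a2 had log2 fold changes of 0.10, -0.07 and -0.26 and Col6a1 of 0.79, 0.26 and 0.003, none called. Col6a2 fell in liver to 9.57 TPM against 24.8 TPM (-1.28), a call lost under both other scalings, while Col6a1 (-0.89) and Col6a3 (-0.98) were not called. The ratio of Col6a1 to Col6a2 had a median of 0.973 over the 61 libraries and ran from 0.545 to 1.38.

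Among the low-abundance types, Col6a5 rose in forebrain (1.27, lost with quantile normalization), Col6a4 in midbrain (1.01, lost under both other scalings and without replicate 1 of E11.5 at 0.95) and Col28a1, known from peripheral nerve, in hindbrain (1.06, lost under both other scalings). Col23a1, a transmembrane collagen, fell in midbrain (-1.33) and liver (-1.60). Col12a1, which binds the surface of type I fibrils, fell in midbrain (-1.02) and hindbrain (-1.15). The midbrain call was lost with median-of-ratios scaling and without the unnumbered P0 library (-0.99). It was also lost with the replicate block, a fit that lacks that library too. The hindbrain call was lost without replicate 1 of P0 (-0.996). Col22a1 of tissue junctions fell in midbrain (-1.03, lost with median-of-ratios scaling and without replicate 2 of E11.5 at -0.93), Col20a1 in hindbrain (-1.03, lost with median-of-ratios scaling, without replicate 1 of P0 at -0.95 and without replicate 2 of E11.5 at -0.997) and Col13a1, a transmembrane type, in liver (-1.09, lost under both other scalings).

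Brain and liver were then compared over the 7 stages they share, as the average of the 3 brain regions against liver. More collagens were higher in brain, led by Col2a1 and Col26a1, and 2, Col14a1 and Col18a1, were lower in brain than in liver. In all, 20 were higher in brain, 2 lower and 20 not called, where 53.3% of all tested genes were called, 44.0% higher and 9.33% lower. The collagen median of 0.80 was close to the all-gene median of 0.82. With median-of-ratios scaling the all-gene median was 0.02 and the split was 15 higher and 4 lower, and with quantile normalization it was -0.01 and the split was 10 and 6. Of the 10 markers of fibroblasts and meninges, 8 were higher in brain and 0 lower (median 1.68); median-of-ratios scaling left 5 higher and 2 lower, and quantile normalization 3 higher and 2 lower. Of the 8 of hepatic stellate cells and mesothelium, 1 was higher in brain and 4 were lower (median -1.21), with 1 and 6 under both other scalings. The shares of all tested genes given above are those without either scaling. The part of these cells in the brain and liver differences was not tested.

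By matrix type, 0 of the 7 collagens placed in the fibrillar group were called in either direction. That group leaves out the fibril-forming cartilage chains, among them Col2a1. Of the 7 tested basement membrane collagens 6 were higher in brain and 1 lower, and 6 of 8 cartilage collagens were higher. Of the 20 others 8 were higher and 1 lower. Brain averaged 60.1 TPM of Col2a1, against 1.12 TPM in liver (4.50 ± 0.093 SE, adjusted p = 5.35e-32). For Col26a1 the brain average was 39.03 TPM, against 3.07 TPM in liver (3.65 ± 0.069). Col9a3 was at 24.01 TPM in brain, against 1.23 TPM in liver (3.23), and Col23a1 at 10.9 against 0.682 TPM (2.81). Libraries of brain and liver did not overlap for these 4 genes. Col4a2 was at 56.1 TPM in brain, against 12.3 TPM in liver (2.17 ± 0.051), and Col4a1 at 80.5 against 23.6 TPM (1.78); their libraries did not overlap either, but the Col4a1 difference was 0.60 and 0.77 under the other 2 scalings and was not called there. Col15a1, at 10.4 TPM in brain against 1.33 TPM in liver, and Col4a5, at 12.95 against 2.41 TPM, had differences of 2.30 and 2.23.

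The 2 collagens lower in brain were Col14a1, at 4.23 TPM in brain against 21.2 TPM in liver (-2.40 ± 0.079 SE, adjusted p = 1.5e-25), and Col18a1, at 32.6 against 76.2 TPM (-1.04 ± 0.054, adjusted p = 2.54e-19). Brain and liver libraries overlapped for both. Col14a1 was at 19.7 and 19.95 TPM in hindbrain at E12.5, against 8.41 and 10.2 TPM in liver at E11.5. Col18a1 was higher in every brain library than in liver at E11.5, E12.5 and E13.5, and lower from E14.5 on. The call of Col18a1 was lost without the midbrain and hindbrain E15.5 libraries and in class A libraries alone. Both settings changed the stages averaged in every tissue. The first left out E15.5, and the second left out E12.5, E15.5 and P0, the stage at which Col18a1 was highest in liver. Of the fibrillar genes, Col3a1 had 0.54, Col1a2 0.83, Col1a1 0.27, Col5a2 0.68 and Col5a1 0.09, and all 5 turned negative under both other scalings.

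**Figure D5:**
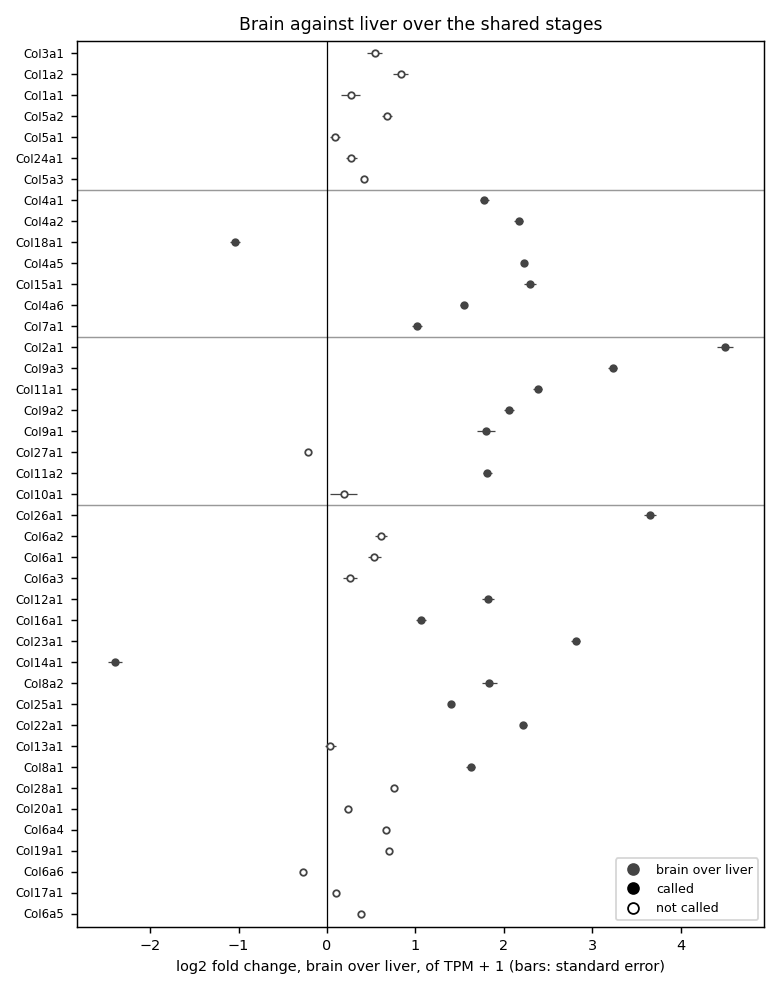
Log2 fold change of TPM + 1, brain over liver, averaged over the 7 shared stages (horizontal axis), of the 42 tested collagens (rows, by matrix type). Bars are standard errors, filled points were called and open points were not; Col2a1 lies farthest right at 4.50 and Col14a1 farthest left at -2.40.

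Within the brain few collagens were called between regions, each of them lower in the region farther forward. Ranked by the average over the 7 stages, 32 of the 42 tested collagens had their highest level in hindbrain, 5 in midbrain, 3 in liver and 2 in forebrain, where 29.7% of all tested genes were highest in hindbrain, 21.9% in midbrain, 20.1% in liver and 28.3% in forebrain. Without the E15.5 stage, a setting added after the values were seen, 33 collagens and 30.4% of all genes were highest in hindbrain. The place of Col10a1 rests on the E16.5 library with 15.6 TPM. Col10a1 and Col17a1 reached 1 TPM in 2 and 3 libraries, all of hindbrain. They passed the filter through that tissue alone, so their rank there is not evidence. Among the other collagens highest in hindbrain, the ratio to the next tissue ran from 1.02 for Col13a1 to 4.34 for Col9a1. The 32 included the 7 fibrillar and the 8 cartilage collagens. Forebrain against midbrain, 0 were higher, 2 lower and 40 not called, where 2.73% of all genes were called, 0.960% higher and 1.77% lower. Midbrain against hindbrain, 0 were higher, 3 lower and 39 not called, where 0.970% were called, 0.252% higher and 0.718% lower. Forebrain against hindbrain, 0 were higher, 7 lower and 35 not called, where 4.32% were called, 1.03% higher and 3.28% lower. The collagen medians were -0.30, -0.33 and -0.69 in these comparisons, and the all-gene medians -0.04, -0.02 and -0.06. The 3 comparisons share libraries. Markers of other tissues moved with them: of 6 skeletal muscle genes 0 were higher and 4 lower in forebrain than in hindbrain (median -1.48), and 0 and 4 in midbrain against hindbrain (-1.42). Their sum was 3.46 to 15.4 TPM over the stages in forebrain and 5.43 to 11.4 TPM in midbrain, against 5.97 to 175 TPM in hindbrain. Of the 10 fibroblast and meninges genes, 0 were higher and 2 lower in forebrain than in hindbrain (median -0.73), and of the 7 cartilage genes 0 and 1. The part of these tissues in the differences between regions was not tested.

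The 7 collagens lower in forebrain than in hindbrain were Col9a2 at 8.11 against 27.2 TPM (-1.75 ± 0.069 SE, adjusted p = 1.04e-21), Col14a1 at 1.61 against 8.31 TPM (-1.63), Col9a1 at 3.33 against 18.2 TPM (-1.45), Col6a1 at 12.8 against 31.4 TPM (-1.19), Col6a2 at 13.01 against 31.5 TPM (-1.17), Col8a1 at 1.88 against 4.96 TPM (-1.15) and Col1a2 at 65.8 against 143 TPM (-1.15 ± 0.103, adjusted p = 4.63e-12). Libraries of the regions overlapped for each of them. Col9a1 at 4.19 against 18.2 TPM, Col9a3 at 14.6 against 37.2 TPM and Col14a1 at 2.78 against 8.31 TPM were lower in midbrain than in hindbrain (-1.38, -1.31 and -1.23). Col25a1 was lower in forebrain than in midbrain, at 4.42 against 11.3 TPM (-1.14), as was Col9a2, at 8.11 against 17.3 TPM (-1.10); both calls were lost with quantile normalization, and that of Col9a2 also without the E15.5 libraries in question. The call of Col8a1 between forebrain and hindbrain was lost with quantile normalization (-0.85). At E15.5 Col25a1 was at 6.69 and 5.94 TPM in the libraries labelled midbrain and at 15.8 and 15.9 TPM in those labelled hindbrain. Without these 4 libraries the average left out E15.5 in every region compared. The number lower was then 1 between forebrain and midbrain, 4 between midbrain and hindbrain and 10 between forebrain and hindbrain. The shares of all tested genes in that setting are not given here, so these counts are not read as results about collagens.

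The change from E11.5 to P0 was itself compared between tissues with an interaction contrast that uses the same libraries as the comparisons within tissues. Brain average against liver, 14 collagens had the higher change in brain, 5 the lower and 23 were not called, where 47.9% of all genes were called, 38.6% higher and 9.32% lower; the medians were 0.32 over the collagens and 0.71 over all genes. The split turned with scaling, to 7 higher and 12 lower with median-of-ratios scaling, where the all-gene median was -0.02, and to 6 and 11 with quantile normalization, where it was 0.03. Col18a1 differed most, by -4.50 ± 0.204 (SE, adjusted p = 2.19e-20), and Col25a1 most in the other direction, by 3.52 ± 0.132 (adjusted p = 1.01e-22). Col26a1 differed by 2.97, Col9a2 by 2.96 and Col9a3 by 2.66. Col4a5 and Col4a6, which fell in liver and were not called in brain, differed by 1.51 each, and Col4a5 was not called under the other scalings, at 0.87 and 0.86.

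Forebrain against hindbrain, 6 collagens had the higher change in forebrain, 1 the lower and 35 were not called, where 7.96% of all genes were called, 5.02% higher and 2.94% lower; the medians were 0.17 over the collagens and 0.05 over all genes. Col9a1 differed by 2.41 ± 0.478 (SE, adjusted p = 0.000148) and Col9a3 by 2.001 ± 0.247 (adjusted p = 9.28e-08). Col25a1 differed by 1.69, Col14a1 by 1.34 and Col20a1 by 1.09, the last not called under the other scalings. Col9a2 differed by 1.25, a call lost with quantile normalization and without replicate 1 of forebrain P0, at 0.85. Col24a1 was the exception at -1.02, a call lost without replicate 2 of forebrain E11.5 (-0.84), without replicate 1 of hindbrain P0 (-0.57) and with median-of-ratios scaling; its hindbrain libraries were at 4.25 and 1.82 TPM at P0 and at 1.04 TPM each at E11.5.

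Genes that process collagen chains were set beside them. Of 19 genes for modification and folding in the endoplasmic reticulum, 1 was higher and 7 lower at P0 in forebrain, 1 and 7 in midbrain, 0 and 5 in hindbrain, and 0 and 11 in liver. Among all tested genes 11.8%, 15.1%, 11.8% and 38.2% were lower in the same tissues, and 19.2%, 18.3%, 16.2% and 8.14% higher, the shares against which the counts of the lists that follow are also to be read. With median-of-ratios scaling, where 8.32% of all genes were lower in liver, 4, 3, 5 and 5 of the 19 were lower in the 4 tissues. Under that scaling the shares lower in the brain regions, and the shares higher in any tissue, are not given here. Serpinh1, the collagen chaperone HSP47, was at a mean of 82.6 TPM in P0 forebrain, against 451 TPM at E11.5 (-2.43 ± 0.133 SE), with -2.16 in midbrain and -2.28 in hindbrain. In liver its mean was 30.3 TPM at P0, against 367 TPM at E11.5 (-3.55). P4ha1, a prolyl hydroxylase subunit, fell in all 4 tissues by 1.08, 1.10, 1.28 and 1.88; its liver call was lost under both other scalings and its midbrain call with median-of-ratios scaling (-0.94). Of 12 tested genes for propeptide removal and cross-linking, 2 were higher and 2 lower in forebrain, 1 and 3 in midbrain, 2 and 2 in hindbrain, and 0 and 6 in liver, the last 2 and 0 with median-of-ratios scaling. Pcolce, which enhances removal of the procollagen tail, fell by 1.85, 1.89, 2.04 and 1.66, while Adamts2, which removes the leading propeptide, rose by 1.98, 2.02 and 1.21 in forebrain, midbrain and hindbrain. The liver call of Pcolce was lost under both other scalings, at -0.54 and -0.78, and the hindbrain call of Adamts2 with quantile normalization (0.99).

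Of 11 collagen receptors, 0 were higher and 3 lower in forebrain, 0 and 4 in midbrain, 0 and 4 in hindbrain, and 1 and 4 in liver; the receptor kinases Ddr1 and Ddr2 fell in all 4 tissues, Ddr1 by 1.16, 1.56, 1.13 and 2.18 and Ddr2 by 1.39, 1.68, 2.15 and 2.01, with the hindbrain call of Ddr1 lost under median-of-ratios scaling. Of 11 genes for degradation and its inhibition, 3 were higher and 2 lower in forebrain, 2 and 2 in midbrain, 3 and 3 in hindbrain, and 2 and 4 in liver. The gelatinase Mmp2 fell by 1.34, 1.65, 2.26 and 2.25, and the inhibitor Timp2 rose by 2.03, 2.004 and 1.86 in the 3 brain regions. Of 14 basement membrane partners, such as laminins and perlecan, 1 was higher and 3 lower in forebrain, 1 and 4 in midbrain, 1 and 3 in hindbrain, and 0 and 5 in liver. With median-of-ratios scaling the liver counts were 2 and 3 for the receptors, 2 and 1 for degradation and 1 and 1 for the partners. Under that scaling only the share of all genes lower in liver is given above, so the higher counts have no share beside them.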

How the data were processed

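The authors deposited gene expression as TPM values, 1 column per library, made with STAR 2.4.0k and RSEM 1.2.23 on mm10 per the submitters' processing notes; the role and settings of each tool were not given in the sources used here. Per the labels' protocols, total RNA was extracted with a kit for lipid-rich tissue and made into strand-specific mRNA libraries. Column sums were 997627 to 1000000, and TPM keeps no record of read depth, so counting error cannot be given. A value of 0 is described as listed at 0.

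Symbols and positions were matched through GENCODE release M21 (42462 of 43346 identifiers), and upstream windows came from RefSeq on GRCm38.p6. Genes with at least 1 TPM in 2 or more libraries were kept (18655). Values were taken as log2(TPM + 1), which understates changes of low genes, and fitted in limma 3.58.1 (R 4.3.3) with 1 mean per tissue and stage group, 30 residual degrees of freedom, a mean-variance trend and no replicate block. The 10 comparisons were P0 against E11.5 in each tissue, brain against liver, the 3 pairs of brain regions, and 2 differences of changes; comparisons of tissues average the 7 shared stages. A stage that a setting removed from any compared tissue was left out of that average for all tissues compared. Adjusted p-values are Benjamini-Hochberg over all tested genes. They measure the spread between the libraries of a group, which may be technical. The fit was tested on simulated data.

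The headers of 4 columns give another stage than the records' titles. The headers were followed, and these libraries carry no replicate number here. They were left out of the fit with the replicate block. Library classes A (37 libraries) and B (24) are defined by the pseudogene Rps15a-ps6, at 1.55 TPM or more in A and 0.89 TPM or less in B; 1 of 31 groups holds both. Alternatives were a pseudocount of 0.1, no filter, a filter at 5 TPM, median-of-ratios and quantile scaling, a fit on the compared tissues only, a replicate block, the 4 columns left out or moved to the titles' stage, the E15.5 midbrain and hindbrain or the E12.5 brain libraries left out, class as a term, class A alone, no mean-variance trend, and each library left out in turn.

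The members, groups, marker lists and pathway lists were chosen with earlier results of these data known. Libraries are given in full for the 2 genes of a group with the highest mean TPM and for up to 2 called genes of a group with the largest change in a comparison, with up to 2 genes not called beside them; other genes are given by their change.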

Additional observations from a re-analysis of the deposited data

Results flagged for a closer look

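The change from E11.5 to P0 differed between the brain average and liver for 19 of 42 collagens, by an interaction contrast in limma that called 47.9% of all tested genes. The split, 14 with the higher change in brain and 5 with the lower, was 7 and 12 with median-of-ratios scaling and 6 and 11 with quantile normalization. Up to 2 called genes of each matrix type, those with its largest differences in log2 fold change (brain minus liver), are named here. They were Col18a1 at -4.495 and Col4a5 at 1.509 for basement membrane, and Col9a2 at 2.961 and Col9a3 at 2.663 for cartilage. For the other types they were Col25a1 at 3.517 and Col26a1 at 2.971. This is not a ranking of all 19. By the comparisons within tissues, Col18a1 fell in the 3 brain regions and rose in liver, while Col25a1 and Col9a2 rose in forebrain and midbrain and fell in liver. The Col4a5 difference was lost under both other scalings.

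The change also differed between forebrain and hindbrain for 7 of 42 collagens, where 7.96% of all tested genes were called. Among them Col9a1 differed by 2.414, Col9a3 by 2.001, Col25a1 by 1.686, Col14a1 by 1.342 and Col24a1 by -1.021 (forebrain minus hindbrain). The Col24a1 difference was -0.57 without replicate 1 of hindbrain P0 and -0.84 without replicate 2 of forebrain E11.5.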

How the results depend on the processing

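With a pseudocount of 0.1, the number of collagens called between forebrain and hindbrain was 14 in place of 7, and the difference between the brain and liver changes of Col9a1 was 1.47 in place of -0.84. Between forebrain and midbrain 0 were called with quantile normalization and 1 without the midbrain and hindbrain E15.5 libraries, in place of 2. The cause was not tested. With the other alternatives, counts of called collagens in either direction stayed within 1.5 times those reported. Counts in 1 direction moved further: with a pseudocount of 0.1, 11 collagens were higher at P0 in forebrain, 9 in midbrain and 6 in hindbrain, in place of 6, 5 and 2. With a filter at 5 TPM 3 were higher in midbrain and 0 in hindbrain, with quantile normalization 3 and 1, and 4 in hindbrain with the titles' stages. Splits that moved with scaling in liver and between tissues are given above. Leaving out each library in turn gave 17 to 18 called collagens for P0 against E11.5 in forebrain, 19 to 21 in midbrain, 12 to 16 in hindbrain and 20 to 22 in liver, 21 to 22 for brain against liver, 2 to 2, 3 to 3 and 7 to 9 for forebrain against midbrain, midbrain against hindbrain and forebrain against hindbrain, and 17 to 21 and 6 to 8 for the differences of changes. Over stages the F test called 28 to 32 in forebrain, 32 to 34 in midbrain, 32 to 36 in hindbrain and 29 to 30 in liver. Of all 420 pairs of collagen and comparison, 132 were called; 45 of these were not called under at least 1 alternative other than leaving out a library and 16 without at least 1 library, while 63 of the other 288 were called under at least 1. Of 1807 recomputed changes over the 134 pairs named by the rule, chosen for the largest change or the highest TPM, 1763 kept direction and side of the threshold, 34 newly passed, 9 no longer passed and 1 reversed. The replicate block was fitted without the 4 unnumbered libraries, and the counts for P0 against E11.5 were 17 in forebrain and 21 in liver. That fit left 1 library in midbrain P0 and 1 in hindbrain P0, so no counts are given for these regions. Deviations of same-numbered libraries had a median correlation of 0.003 over 325 pairs of groups (-0.634 to 0.32, with 27 over 0.1). That median pools all tissues and stages, so it cannot show whether the numbers pair libraries within a stage. Class A alone gave no value for the midbrain change or the brain and liver difference of changes, since both midbrain P0 libraries are class B. The depth behind a TPM value is unknown, and groups of 2 leave each spread to be shared across groups.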
